A study of Homo sapiens with 9 samples.

Results

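Desmosomes are the spot-like junctions that tie the keratin filaments of neighbouring keratinocytes together, and they give the epidermis its mechanical strength. Desmosomal cadherins (desmogleins and desmocollins) bridge the gap between the cells, the armadillo proteins plakoglobin and plakophilin bind their tails inside the cell, and desmoplakin joins that plaque to the keratin filaments. In skin, DSG2, DSG3, DSC2 and DSC3 are known mainly from the lower layers and DSG1 and DSC1 from the upper, differentiated layers. Here 10 genes of this structure, DSG1, DSG2, DSG3, DSC1, DSC2, DSC3, DSP, JUP, PKP1 and PKP3, were taken by symbol from a count table of 21170 features. All 10 were in the table, and 8 of them were among the 13713 features with enough counts to be tested. DSG1 and DSC1 were the 2 that were not.

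The libraries were made from poly(A) RNA of HaCaT cells, a human keratinocyte line that became immortal spontaneously in culture. There were 3 libraries from cells overexpressing an empty vector (Vector), 3 from cells overexpressing wild-type FTO (FTO) and 3 from cells overexpressing an FTO mutant whose demethylase activity is disrupted (mut-FTO). FTO is a demethylase of RNA adenosines, studied in this series for its part in psoriasis-like dermatitis. The labels name neither the promoter nor the mutation, and they do not say whether replicates were separate cultures, pools or clones. The p-values thus reflect how far these libraries differ, a spread that may be technical. All groups carry the vector or a construct, and untransfected cells were not analysed here.

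Depth ran from 32222203 to 37846027 counts per library. The FTO gene was at 20.4 ± 4.75 CPM in Vector (CPM are counts scaled to the normalized library size; mean ± SD, n = 3), 69.7 ± 7.22 with FTO and 65.5 ± 16.5 in mut-FTO. That difference tells Vector from the other groups, while only the letters of the column names tell FTO from mut-FTO. Vector replicate 3 stood apart, with 14.97% of its counts from mitochondrially encoded genes against 3.80% to 7.45% in the other 8 libraries. That library and mut-FTO replicate 2 also had 2.498% and 3.17% of their counts in assembled loci without a gene name, against 0.69% to 0.87% in the other 7. The 6 keratinocyte markers summed to between 9703 and 20505 CPM. Fibroblast markers summed to at most 10.8 CPM, melanocyte markers to at most 2.54 and endothelial markers to at most 1.73, and THY1, TYR and PECAM1 had no count in any library. Leukocyte markers summed to 66.3 to 110 CPM, nearly all of it CD14 and CD68, which other cell types can express. Of the 4 fibroblast markers tested, 1 was called. This was DCN, which rose from 0.0373 CPM in Vector to 0.783 with FTO and 2.15 in mut-FTO (edgeR adjusted p = 0.0480 and 0.00130). The first of these calls was lost in 12 of 20 alternative fits, among them those without Vector replicate 1 and without any FTO or mut-FTO library. COL1A1, another fibroblast marker, was at 7.93 CPM in Vector, 4.01 with FTO and 6.64 in mut-FTO (edgeR adjusted p = 0.103 for FTO against Vector), and the sum of the fibroblast list was 9.14 to 9.95 CPM in Vector, 5.68 to 8.07 with FTO and 9.73 to 10.8 in mut-FTO. CD14 rose from 13.7 to 27.6 CPM in mut-FTO (edgeR adjusted p = 0.00600). Their part in the results was not tested.

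DSG1 and DSC1, the cadherins of the upper epidermis, were close to silent in every group. DSC1 had 0 counts in all 9 libraries, which allows a level of up to 0.00949 CPM at 3 counts over all libraries. DSG1 had no count in the 3 Vector libraries, 6, 0 and 0 counts in FTO, and 4, 0 and 2 counts in mut-FTO, 12 in all. The limit for Vector, at 3 counts over the group, is 0.0292 CPM, and no difference in DSG1 was detectable at this depth. These limits cover counting error only, and in bulk RNA fewer cells that express a gene and less of its RNA per cell cannot be told apart. The genes of the desmosomal cadherins form a cluster on chromosome 18. In the order of the RefSeq annotation, total counts over the 9 libraries were 46868 for DSC3, 23459 for DSC2, 0 for DSC1, 12 for DSG1, 19 for DSG4 (a desmoglein of the hair follicle that is not among the 10), 82634 for DSG3 and 52419 for DSG2. The near-silent genes therefore lay next to each other in the middle of the cluster, with highly counted genes on both sides.

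The sequences just upstream of these genes are shown because the silent and the expressed cadherins lie side by side, and for comparison of their CG pairs. Each line is the 120 bases directly before the annotated start in RefSeq (GRCh38.p14), on the gene's own strand. In DSG1 and DSG3 the capitals mark a 20-base run that both share, and in DSC1, DSC3 and DSG2 they mark CG pairs, of which DSC1 has none here.
DSG1 (chr18:31318040-31318159, plus strand): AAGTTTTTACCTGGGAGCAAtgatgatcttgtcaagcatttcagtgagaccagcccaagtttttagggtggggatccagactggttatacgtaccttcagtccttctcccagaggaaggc
DSG3 (chr18:31447621-31447740, plus strand): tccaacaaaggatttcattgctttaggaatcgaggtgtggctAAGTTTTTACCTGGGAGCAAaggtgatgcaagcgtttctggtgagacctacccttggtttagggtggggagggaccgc
DSC1 (chr18:31162857-31162976, minus strand): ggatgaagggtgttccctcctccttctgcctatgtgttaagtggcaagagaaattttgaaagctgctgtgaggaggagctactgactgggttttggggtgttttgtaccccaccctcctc
DSC3 (chr18:31042743-31042862, minus strand): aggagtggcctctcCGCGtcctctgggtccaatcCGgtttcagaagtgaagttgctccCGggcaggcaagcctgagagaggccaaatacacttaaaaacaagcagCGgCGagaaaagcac
DSG2 (chr18:31498057-31498176, plus strand): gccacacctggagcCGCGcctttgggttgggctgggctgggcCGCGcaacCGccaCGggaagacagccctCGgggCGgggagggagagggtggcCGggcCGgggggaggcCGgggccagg

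Over the full 300-base windows, 250 bases before to 50 after the start, the CG pairs numbered 2 in DSC1, 3 in DSG1 and 6 in DSG3. DSC3 had 25, DSG2 36 and DSP 37, PKP1 had 19, and the windows of DSC2 held 15 and 22 and those of JUP 23 and 19, where a gene has more than 1 annotated start. The median over all 35116 RefSeq promoters was 14. DSG3, with 6 CG pairs, was among the well expressed genes, and DSG1 and DSC1, with 3 and 2, were close to silent. Whether promoter sequence bears on these levels was not tested. The 20-base run of DSG1 and DSG3, picked as their longest match, starts 120 and 78 bases before their starts. It was found in 2 of the 35116 promoters, which are those of DSG1 and DSG3 themselves. The next longest run shared by any pair of members was 12 bases. A local alignment of the upstream windows of DSG1 and DSG3 had 101 identical bases in 140 columns (72.1%). The total counts of these genes were 12 and 82634. The GC box GGGCGG, searched on both strands, was in a window of PKP1, DSP, JUP, DSC2 and DSG2, beside 44.95% of all promoters. TATAAA (11.53% of all promoters), the AP-1 motif TGANTCA (7.71%) and the grainyhead motif AACCGGTT (0.13%) were in none of the members' windows. RefSeq windows were matched for 9 of the 10 genes, PKP3 being the other.

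Levels of the 8 tested genes per kilobase of transcript differed widely. In Vector, JUP was highest at 589 ± 15.2 CPM per kilobase (SD, n = 3). PKP3 followed at 218 ± 89.7 and PKP1 at 77.5 ± 9.49 CPM per kilobase. DSG3 stood at 47.4 ± 11.7, DSP at 38.5 ± 17.0, DSG2 at 35.9 ± 10.2, DSC3 at 25.2 ± 9.58 and DSC2 at 6.71 ± 1.39 CPM per kilobase. Libraries of the neighbours DSG3 and DSP, DSP and DSG2, and DSG2 and DSC3 overlapped in Vector, and those of the other neighbours did not. The order was the same in the other groups, where the overlapping neighbours were DSP and DSG2 for FTO, and DSG3 and DSP as well as DSG2 and DSC3 for mut-FTO. The lengths are those of the longest principal GENCODE v29 transcript, from 2.809 kilobases for PKP3 to 12.325 for DSC2. Where cells use a shorter form, as can be the case for DSC2 with its long transcript, the true level per kilobase is higher than given.

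**Figure D1:**
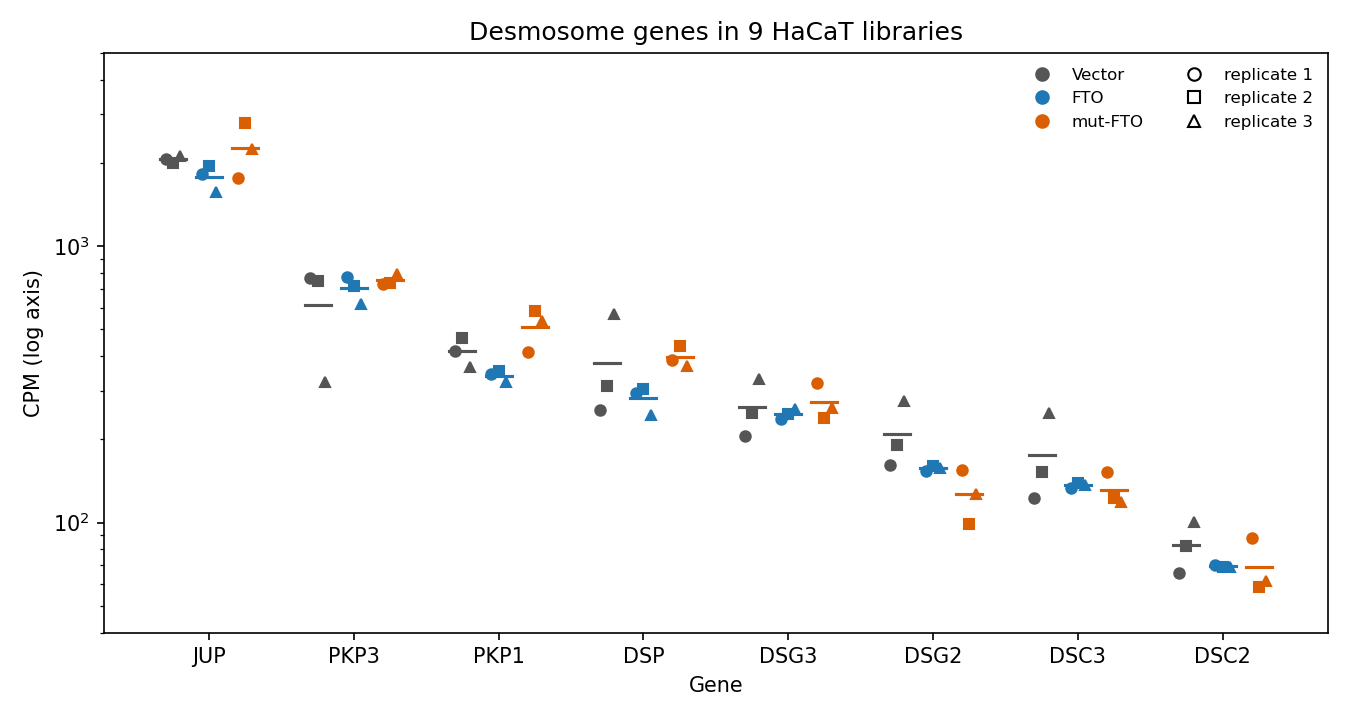
CPM of the 8 tested desmosome genes (log axis) in each of the 9 libraries, in order of their mean; colours give the group, marker shapes the replicate, and bars the group mean. JUP lies between 1567 and 2799 CPM and DSC2 between 58.4 and 100.1, and Vector replicate 3 is the highest Vector library for 6 genes and the lowest for PKP1 and PKP3.

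No member passed the test in any of the 3 comparisons. The tool was edgeR's quasi-likelihood test with Benjamini-Hochberg adjustment over all 13713 genes, called at an adjusted p below 0.05. In FTO against Vector 0 of 8 members were called, beside 0.744% of all genes tested. In mut-FTO against Vector 0 of 8 were called, beside 7.78%, and in FTO against mut-FTO 0 of 8, beside 2.33%. At an unadjusted p below 0.05 there were 0, 1 (DSG2) and 1 (PKP1) members in these comparisons, beside 11.9%, 21.1% and 14.0% of all genes. DESeq2 called 0, 1 (DSG2) and 1 (PKP1) of the 8, beside 2.67%, 12.3% and 5.48% of all genes. With limma-voom 0 were called in each, beside 0.685%, 7.69% and 1.92%. The median log2 fold change of the 8 members was -0.28, 0.068 and -0.12, against -0.0020, -0.0012 and 0.0046 over all genes. The comparisons share libraries, so they are not independent of each other.

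**Figure D2:**
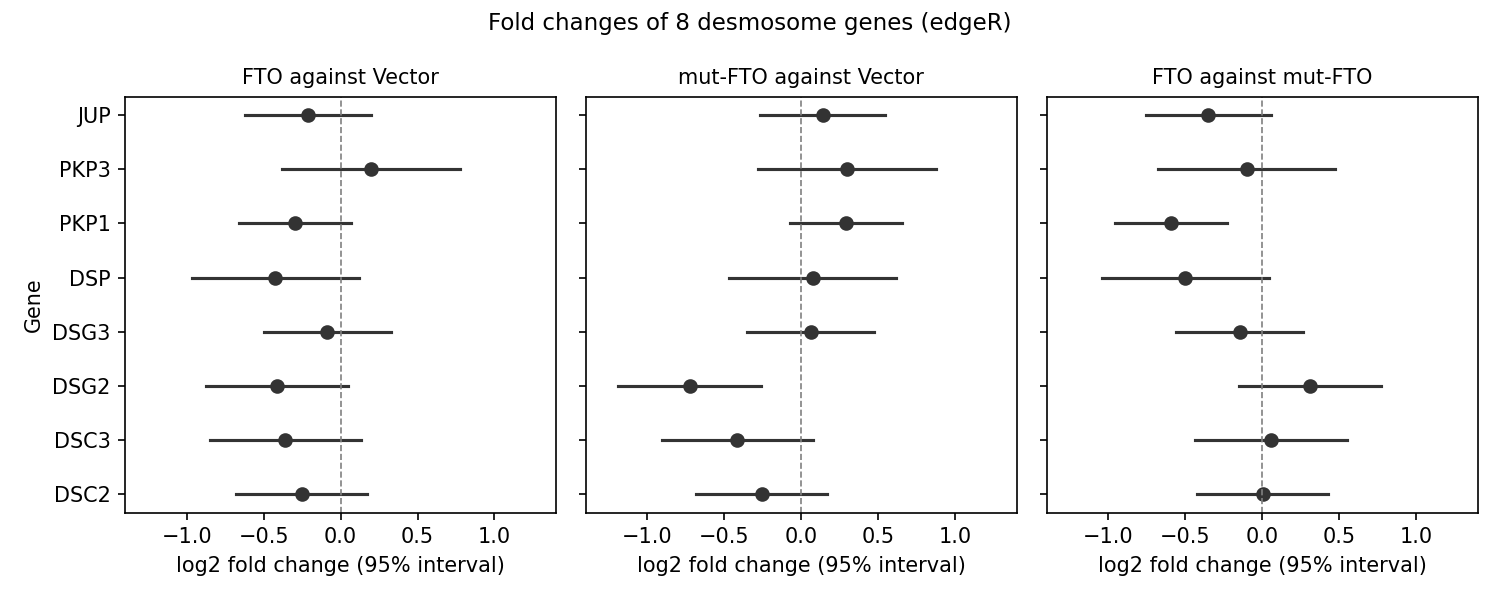
Log2 fold changes of the 8 tested desmosome genes from edgeR (points) with their 95% intervals (lines) in the 3 comparisons; the dashed line marks no difference. The intervals of DSG2 in mut-FTO against Vector (-1.19 to -0.26) and of PKP1 in FTO against mut-FTO (-0.96 to -0.22) do not include 0, and those of the other members and comparisons do.

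DSG2, the most widely expressed desmoglein and one that is also found in simple epithelia and heart, had its highest values in Vector. It was at 161.3, 191 and 276 CPM in the Vector libraries, at 153, 160.6 and 158 in FTO and at 155, 98.6 and 127 in mut-FTO. All 3 libraries of FTO and of mut-FTO lay below all 3 of Vector, while FTO and mut-FTO overlapped. The gap between Vector and FTO was very small (161.3 against 160.6 CPM). Against Vector, mut-FTO differed by -0.73 on the log2 scale (SE 0.21, 95% interval -1.19 to -0.26, edgeR adjusted p = 0.0596). FTO differed from Vector by -0.41 (interval -0.87 to 0.051, edgeR adjusted p = 0.465). Of 20 alternative fits, 5 called the difference between mut-FTO and Vector and 15 did not, with adjusted p from 0.00309 to 0.206. The 5 were DESeq2 (0.0156), no filter on low counts (0.0471), a correction for GC content chosen after the data were seen (-0.63 at 0.00309), and edgeR without Vector replicate 1 (-0.88 at 0.0222) or replicate 3 (-0.48 at 0.0459). Among the others, the fit on the 6 samples compared gave 0.162, and leaving out mut-FTO replicate 2 or 3 gave 0.206 and 0.176. Without both Vector replicate 3 and mut-FTO replicate 2 the difference was -0.35 at an adjusted p of 0.0636.

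DSG3, the desmoglein of the basal and spinous layers and the target of autoantibodies in pemphigus vulgaris, was at 205, 248 and 332 CPM in Vector, 236, 247 and 257 with FTO and 321, 239 and 259 in mut-FTO. The 3 groups overlapped. The differences from Vector had 95% intervals of -0.50 to 0.32 on the log2 scale for FTO and -0.35 to 0.47 for mut-FTO. Each interval holds both lower and higher levels than Vector, so the direction of any difference was not settled.

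Both desmocollins also overlapped between groups. DSC2, the widely expressed partner of the desmogleins, was at 66.0, 81.9 and 100.1 CPM in Vector, 70.0, 69.0 and 69.1 with FTO and 87.8, 58.4 and 61.3 in mut-FTO. DSC3, the desmocollin of the lower epidermal layers, was at 122, 153 and 249.7 CPM in Vector, 133.9, 139 and 136 with FTO and 152, 122 and 119 in mut-FTO. The highest Vector library was replicate 3 for both. For mut-FTO against Vector the difference was -0.26 in DSC2 (interval -0.68 to 0.17) and -0.41 in DSC3 (interval -0.91 to 0.079) on the log2 scale, with edgeR adjusted p of 0.502 and 0.326.

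The ratio of DSG3 to DSG2 counts within a library does not depend on how libraries are scaled to each other, and it separated the 3 groups. It was 1.27, 1.30 and 1.20 in Vector, 1.54, 1.54 and 1.62 with FTO and 2.08, 2.42 and 2.05 in mut-FTO. DSG3 thus outnumbered DSG2 in every library, least in Vector and most in mut-FTO. On the log2 scale the ratio was 0.33 ± 0.059 in Vector, 0.65 ± 0.044 with FTO and 1.12 ± 0.13 in mut-FTO (SD, n = 3). This ratio was singled out after its values were seen, as 1 of 28 pairs of members, so it is described without a test. In 3 of the 28 pairs (10.7%) no library of any group overlapped with another group. Set against each of the other 13712 genes tested, DSG2 gave such a ratio with 10.1% of them and DSG3 with 3.81%, so separation of this kind was common for DSG2.

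The other separated pairs were DSG2 to DSC2 and DSG3 to DSC3. DSG2 to DSC2 was 2.44, 2.33 and 2.75 in Vector, 2.19, 2.326 and 2.29 with FTO and 1.76, 1.69 and 2.06 in mut-FTO, so the gap between Vector and FTO was very small. DSG3 to DSC3 was 1.68, 1.62 and 1.33 in Vector, 1.76, 1.78 and 1.88 with FTO and 2.11, 1.95 and 2.18 in mut-FTO. Against the other 13712 genes, DSC2 gave a separated ratio with 3.16% and DSC3 with 3.56%. DSG2, DSG3, DSC2 and DSC3 have transcripts of similar GC content, 42.0%, 42.4%, 38.9% and 39.7%. In Vector replicate 3 their log2 CPM differed from the other Vector libraries by 0.65, 0.56, 0.45 and 0.87. In mut-FTO replicate 2 the differences from the other mut-FTO libraries were -0.50, -0.27, -0.33 and -0.14. The part of GC content in these ratios was not tested.

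**Figure D3:**
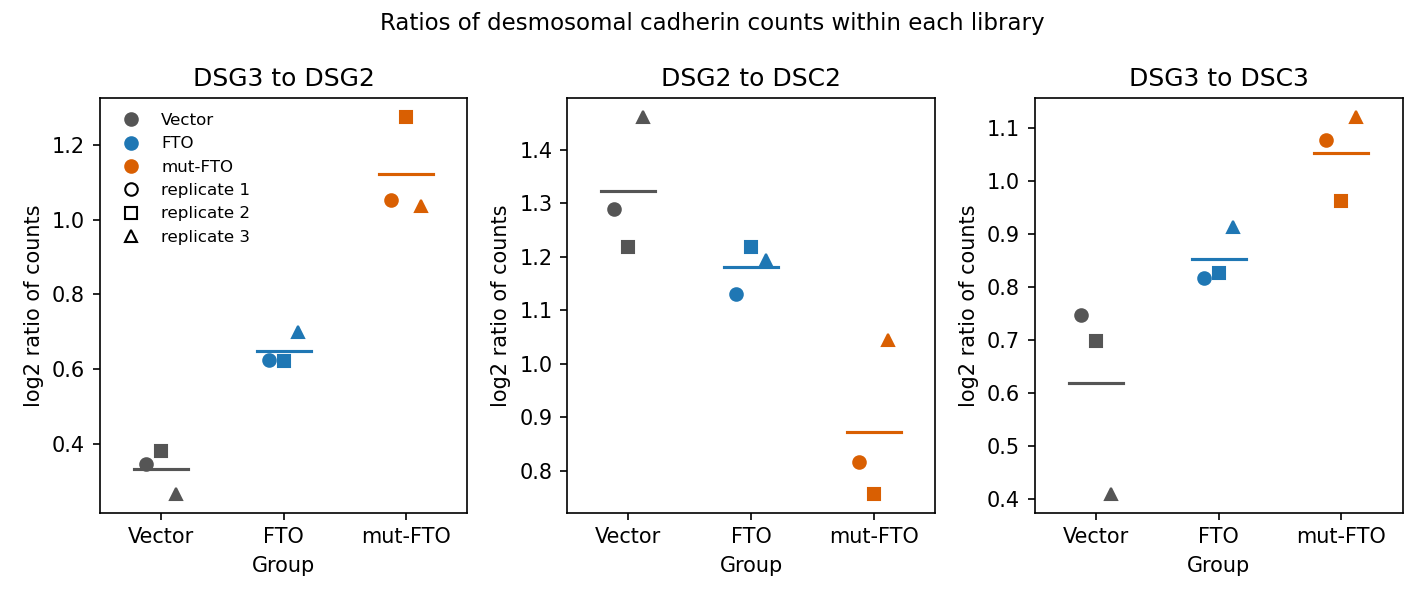
Log2 ratios of counts within each library for the 3 pairs of desmosomal cadherins whose groups did not overlap, by group; marker shapes give the replicate and bars the group mean. The mean of DSG3 to DSG2 is 0.33 for Vector, 0.65 for FTO and 1.12 for mut-FTO, and the Vector and FTO libraries of DSG2 to DSC2 nearly touch.

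Plakoglobin, encoded by JUP, is the armadillo protein shared by desmosomes and adherens junctions. It was at 2060.4, 2006 and 2112 CPM in Vector, 1824, 1947 and 1567 with FTO and 1763, 2799 and 2242 in mut-FTO. All FTO libraries lay below all Vector libraries, and mut-FTO spanned both. FTO differed from Vector by -0.21 on the log2 scale (interval -0.62 to 0.20, edgeR adjusted p = 0.687) and from mut-FTO by -0.35 (interval -0.76 to 0.057, edgeR adjusted p = 0.444).

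PKP1, the plakophilin of stratified epithelia whose loss causes a skin fragility syndrome, was lowest in FTO. Its levels were 419, 467 and 365 CPM in Vector, 344, 352 and 322 with FTO and 416, 581 and 537 in mut-FTO. The FTO libraries lay below all 6 others, while Vector and mut-FTO overlapped. FTO differed from mut-FTO by -0.59 on the log2 scale (SE 0.17, interval -0.96 to -0.22, edgeR adjusted p = 0.0987). Of 20 alternative fits, 5 called this difference and 15 did not, with adjusted p from 0.00376 to 0.341. The 5 were DESeq2 (0.0205), the GC correction (0.0224), edgeR on the 6 samples compared (0.00890), and edgeR without Vector replicate 3, alone (0.00376) or with mut-FTO replicate 2 (0.00878). Leaving out any 1 FTO library gave 0.294 to 0.318, and leaving out any 1 mut-FTO library gave 0.0573 to 0.341. FTO differed from Vector by -0.30 (interval -0.66 to 0.067, edgeR adjusted p = 0.506). That difference was called in 1 of 20 alternative fits, without Vector replicate 3 and mut-FTO replicate 2 (-0.40 at an adjusted p of 0.0323), while without Vector replicate 3 alone the adjusted p was 0.107.

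PKP3, the plakophilin present in nearly all epithelial desmosomes, was at 766, 750.2 and 322 CPM in Vector, 774, 717 and 618 with FTO and 732, 738 and 792 in mut-FTO. Only Vector replicate 3 lay far from the rest. The differences from Vector were 0.20 for FTO and 0.30 for mut-FTO on the log2 scale (intervals -0.38 to 0.78 and -0.28 to 0.88), and without that library they were -0.13 and -0.017.

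DSP encodes desmoplakin, the plakin that anchors keratin filaments to the plaque. It was at 255, 311 and 566 CPM in Vector, 294, 305 and 245 with FTO and 387, 436 and 369 in mut-FTO. All FTO libraries lay below all mut-FTO libraries, and Vector spanned both, with replicate 3 the highest of its 3 libraries. FTO differed from mut-FTO by -0.50 on the log2 scale (interval -1.04 to 0.045, edgeR adjusted p = 0.411). Without Vector replicate 3, edgeR called that difference, at -0.51 with an adjusted p of 0.0105, and it also called DSP higher in mut-FTO than in Vector, by 0.48 at an adjusted p of 0.0217. The fit on the 6 samples compared also called FTO against mut-FTO, at an adjusted p of 0.0157. Of 20 alternative fits, 3 called DSP in FTO against mut-FTO and 2 in mut-FTO against Vector. With all libraries mut-FTO differed from Vector by 0.075 (interval -0.47 to 0.62).

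Groups that did not overlap were counted over the 8 members. In FTO against Vector 3 members, DSG2, JUP and PKP1, were lower in every FTO library, DSG2 by a very small gap. Of all genes, 21.0% were without overlap in either direction (10.9% lower). In mut-FTO against Vector 1 member, DSG2, was lower in every mut-FTO library, beside 24.0% (11.8% lower). In FTO against mut-FTO 2 members, DSP and PKP1, were lower in every FTO library, beside 29.0% (14.2% lower). None was higher without overlap. None of these members passed the test in the comparison concerned.

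The spread within groups was uneven. The median SD of log2 CPM over the 8 members was 0.37 in Vector, 0.064 with FTO and 0.24 in mut-FTO, and over all genes tested it was 0.37, 0.14 and 0.23. In Vector, replicate 3 lay farthest from the group mean for DSG2, DSG3, DSC3, DSP, PKP1 and PKP3. For DSG3 replicate 1 was nearly as far (-0.32 against 0.37 for replicate 3). For DSC2 replicate 1 was slightly farther (-0.305 against 0.297), and for JUP replicate 2 (-0.0378 against 0.0369). The log2 CPM of replicate 3 was compared with the mean of the other Vector libraries. The difference was 0.65 for DSG2, 0.56 for DSG3, 0.45 for DSC2, 0.87 for DSC3 and 1.01 for DSP. It was 0.055 for JUP, -0.28 for PKP1 and -1.24 for PKP3. The cadherins and DSP, with a transcript GC content of 38.9% to 47.9%, were thus high in that library, and PKP1 and PKP3, at 56.4% and 66.7%, were low. JUP, at 61.5%, was near its other values.

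The medians over all genes sloped the same way in that library. With the 12489 genes that had a transcript (91.1% of those tested) split into 4 equal bins by GC content, the median deviation of Vector replicate 3 was 0.63 in the lowest bin and 0.22, -0.24 and -0.64 in the next ones. In mut-FTO replicate 2 it went the other way, from -0.29 to -0.077, 0.13 and 0.16. There, DSG2 deviated by -0.50, DSG3 by -0.27, DSC2 by -0.33, DSC3 by -0.14, PKP1 by 0.30 and JUP by 0.49. DSP deviated by 0.21 and PKP3 by -0.045, the opposite sign to the medians of their bins (-0.077 and 0.16). The part of GC content in the member results was not tested beyond the corrected fit, under which DSG2 in mut-FTO against Vector and PKP1 in FTO against mut-FTO were called and no other member was.

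**Figure D4:**
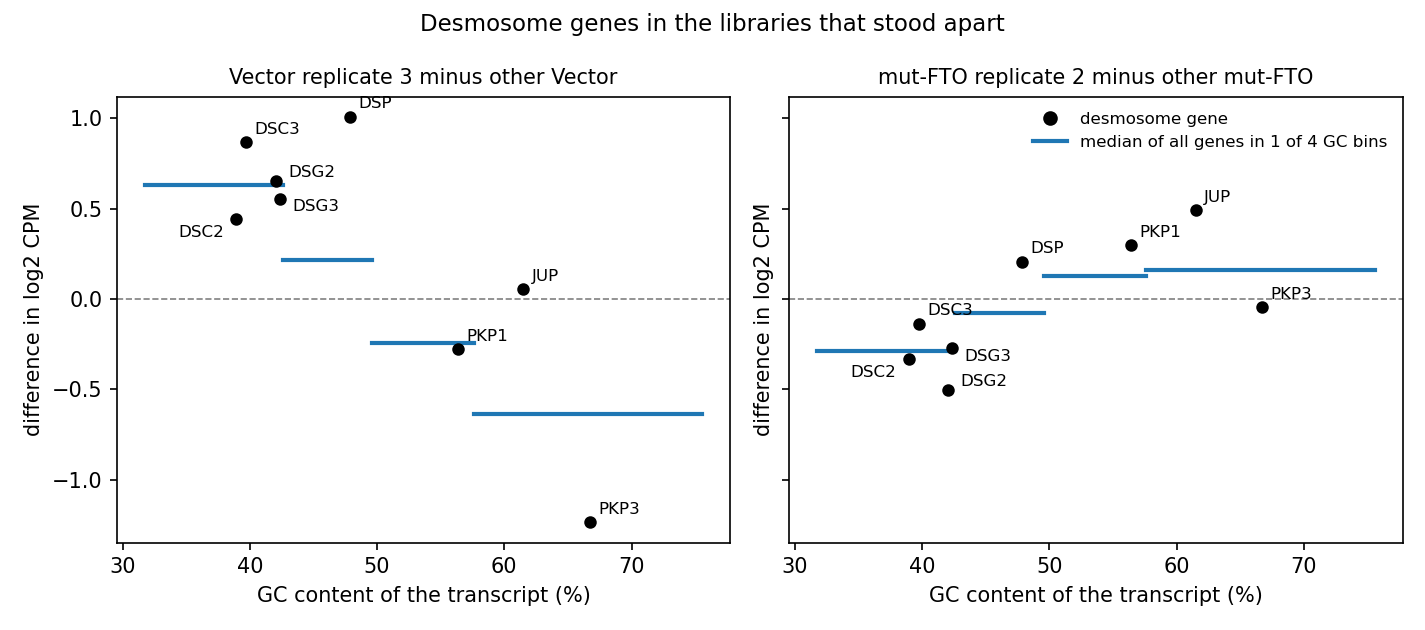
Difference in log2 CPM of Vector replicate 3 from the mean of the other Vector libraries (left) and of mut-FTO replicate 2 from the other mut-FTO libraries (right) against the GC content of the transcript, for the 8 tested desmosome genes (points) and as the median of all genes in each of 4 equal bins by GC content (lines). In Vector replicate 3 the members run from 1.01 for DSP to -1.24 for PKP3, and the bin medians from 0.63 to -0.64.

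The motif GGACT, a common form of the sequence at which adenosine is methylated in messenger RNA, was counted in the members' transcripts since FTO acts on that modification. It occurred 0 times in the JUP transcript and 3 to 7 times in those of the other members. Per kilobase this was 0.41 in DSC2, 0.43 in DSC3, 0.71 in DSP, 0.74 in PKP1, 0.86 in DSG2, 1.27 in DSG3 and 1.42 in PKP3, beside a median of 0.942 over the 12489 tested genes that had a transcript. A match of these letters does not show methylation, which was not measured.

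Genes whose pattern was most like that of the members with the lowest p were found by the root mean square difference of centred log2 CPM over the 9 libraries, among 8144 genes with a mean of at least 10 CPM. For PKP1 they were ZNF629 (0.054), CDC25B (0.057) and TECPR2 (0.068), where PKP1 itself varied by 0.28 about its mean. For DSG2, which varied by 0.38, they were ADAM10 (0.073), FNDC3A (0.084) and SEC24D (0.092). ADAM10 is a membrane protease known to cut desmogleins. It was at 93.2 ± 31.7 CPM in Vector, 73.6 ± 2.53 with FTO and 55.4 ± 10.4 in mut-FTO (SD, n = 3), and was not called in any comparison. Likeness over the 9 libraries also takes in differences within groups, among them those of Vector replicate 3 and mut-FTO replicate 2. A link between ADAM10 and DSG2 was not tested.

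Other proteins of the desmosome and its plakin partners did not pass the test either. Of 7 tested genes (PERP, PPL, EVPL, PKP2, PKP4, CDSN and KAZN) 0 were called in any comparison. Periplakin (PPL), which links the cornified envelope to keratin, was nearest, with -0.65 on the log2 scale in FTO against mut-FTO (interval -1.03 to -0.27, edgeR adjusted p = 0.0784). Envoplakin (EVPL), its partner, stood at -0.63 (interval -1.09 to -0.18, edgeR adjusted p = 0.165). Of 5 tested genes of calcium handling, which desmosomal adhesion needs, 0 were called in any comparison. The same held for 4 tested repressors of junction genes. Over all genes tested, 0.744% were called in FTO against Vector, 7.78% in mut-FTO against Vector and 2.33% in FTO against mut-FTO. Calls of 0 in lists this short therefore do not set them apart.

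Of the 14 tested genes of adherens junctions, the other cadherin-based junction, 0 were called in FTO against Vector. In mut-FTO against Vector CDH2, the neuronal type classical cadherin, fell from 13.1 ± 3.80 to 4.85 ± 0.736 CPM (edgeR adjusted p = 0.00704). In FTO against mut-FTO NECTIN4, a nectin of epithelia, was lower in FTO, at 29.0 against 55.3 CPM (edgeR adjusted p = 0.0488, lost when any FTO or mut-FTO library was left out). A list of proteases and protease inhibitors held 14 tested genes. Among them, MMP9 fell in both constructs, from 2.80 ± 0.507 CPM in Vector to 0.408 ± 0.135 with FTO and 0.529 ± 0.104 in mut-FTO (edgeR adjusted p = 0.00569, which is 0.0539 without FTO replicate 3, and 0.00208). SPINK6, an inhibitor of kallikreins, had no count in Vector and rose to 0.463 ± 0.0686 CPM with FTO and 7.06 ± 0.594 in mut-FTO (edgeR adjusted p = 0.00158 and 2.55e-06, the first lost in the fit on the 6 samples compared, at 0.102), and it was lower in FTO than in mut-FTO.

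The keratins, whose filaments end at desmosomes, included called genes in every comparison. Of 13 tested, KRT1 rose in FTO against Vector, and KRT1, KRT5, KRT14, KRT15 and KRT16 rose in mut-FTO against Vector. The other keratins were not called there. KRT7 (799 against 1164 CPM), KRT8 (734 against 1063) and KRT18 (387 against 601) had lower means in mut-FTO than in Vector. KRT6A, KRT6B, KRT10, KRT17 and KRT19 had higher means. In FTO against mut-FTO KRT1, KRT15 and KRT16 were lower in FTO, and the calls of KRT15 and KRT16 were lost when any FTO library, or mut-FTO replicate 2 or 3, was left out (for KRT16 also mut-FTO replicate 1). KRT1, a keratin of differentiated layers, was at 2.63, 4.22 and 4.03 CPM in Vector, 21.2, 20.9 and 25.1 with FTO and 87.2, 88.9 and 94.8 in mut-FTO (edgeR adjusted p = 0.000102 for FTO and 2.90e-07 for mut-FTO against Vector). The groups of KRT1 did not overlap. DSG1 and DSC1, known from the same layers, stayed within 6 counts per library in all groups. KRT14, the main basal keratin, rose from 4888 ± 854 CPM in Vector to 9212 ± 1064 in mut-FTO (edgeR adjusted p = 0.00876), which is 0.0512 without mut-FTO replicate 2 and 0.0546 on the 6 samples compared. KRT5, its partner, rose from 3199 ± 607 to 5143 ± 802 CPM at an edgeR adjusted p of 0.0468, a call that was lost when any library other than Vector replicates 1 and 3 was left out.

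Among markers of the suprabasal layers, 1 of 7 tested (KRT1) rose in FTO against Vector and 4 rose in mut-FTO against Vector, KRT1, SPRR1A, SPRR1B and TGM1, the last an enzyme that crosslinks the cornified envelope. Of the markers not called in FTO against Vector, IVL had a lower mean with FTO (1.84 against 2.37 CPM). KRT10, FLG, SPRR1A, SPRR1B and TGM1 had higher means with FTO. TGM1 went from 122 ± 28.2 CPM in Vector to 252 ± 34.1 in mut-FTO (edgeR adjusted p = 0.00367). Of 6 basal markers 3 (KRT5, KRT14 and KRT15) rose in that comparison. The other basal markers were not called and had lower means in mut-FTO than in Vector. ITGA6 was at 813 against 1075 CPM, ITGB4 at 1285 against 1342 and COL17A1 at 806 against 1078. Of 13 tested factors that control epithelial genes 0 were called in FTO against Vector and 3 rose in mut-FTO against Vector. They were GRHL3, from 3.05 ± 0.570 to 8.10 ± 0.770 CPM (edgeR adjusted p = 0.00304), OVOL2, from 8.20 ± 1.84 to 17.4 ± 3.49 (edgeR adjusted p = 0.00980, which is 0.0560 without mut-FTO replicate 3), and GRHL1, from 9.31 ± 1.22 to 14.6 ± 0.472 (edgeR adjusted p = 0.0447, lost when any library other than Vector replicate 3 was left out). The other factors were not called in mut-FTO against Vector. TP63 (275 against 389 CPM), ESRP1 (74.1 against 101), ESRP2 (45.4 against 62.0), KLF4 and ZNF750 had lower means in mut-FTO. GRHL2, KLF5, OVOL1, EHF and ELF3 had higher means. In FTO against mut-FTO 0 of the 13 factors were called. There, 4 suprabasal markers (KRT1, SPRR1A, SPRR1B and TGM1) and 1 basal marker (KRT15) were lower in FTO. The calls of SPRR1A, SPRR1B and TGM1 there were lost when any FTO library or mut-FTO replicate 2 was left out, and for SPRR1A and TGM1 also mut-FTO replicate 3. Whether the members and the keratins or factors differed in their response was not tested.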

How the data were processed

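The authors' deposited table holds whole-number read counts per gene, not normalized, with a column for each library. HISAT2 and StringTie are named in the submitters' processing notes, with mm10 (a mouse build) although cells and symbols are human. Not given in the sources used here are versions, counting program, strand setting and annotation. Without a stated strand setting, reads of overlapping genes cannot be told apart.

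Groups came from the labels. In R 4.3.3, edgeR 4.0.16 kept genes by filterByExpr (minimum count 10, total 15), scaled libraries by TMM and fitted all 9 in a robust quasi-likelihood model with a term per group. P-values were adjusted by Benjamini-Hochberg over all genes tested. Log2 CPM used a prior count of 2. The script was tested on simulated data. DESeq2 1.42.0, limma-voom (limma 3.58.1) and other scalings, filters and left-out libraries were alternatives.

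The members and gene lists were chosen with earlier results of these data known. Named were all members, every called gene of a list, otherwise its 1 or 2 genes of lowest p, and the 3 genes most like the 2 members of lowest p. Promoters came from RefSeq (GRCh38.p14) and transcript lengths and GC content from GENCODE v29.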

Additional observations from a re-analysis of the deposited data

How the results depend on the processing

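Of 504 member fold changes under alternatives, 464 kept direction and side of the threshold, 16 passed it and 24 changed sign. None of those that changed sign had an unadjusted p below 0.05. The 464 include the setting with a log2 fold change of at least 1, which reuses the main fit and could not change a member. Members called lower in FTO against Vector went from 0 to 1 without Vector replicate 3 and mut-FTO replicate 2. Members called lower in mut-FTO against Vector went to 1 with DESeq2, with no filter and with the GC correction chosen after the data were seen, and ranged from 0 to 1 with each library left out. Members called higher there went to 1 without both libraries and ranged from 0 to 1 with each left out. Members called lower in FTO against mut-FTO went to 1 with DESeq2 and the GC correction, to 2 on the 6 samples compared and without both libraries, and ranged from 0 to 2 with each left out. Without both libraries the log2 fold changes that changed sign were in FTO against Vector 0.11 (DSG3) and -0.12 (PKP3), in mut-FTO against Vector -0.051 (JUP) and -0.020 (PKP3), and in FTO against mut-FTO -0.094 (DSC2). With library size alone DSG3 in mut-FTO against Vector was -0.0058. With the GC correction JUP was -0.086 there, and DSC2, DSC3 and PKP3 were -0.12, -0.075 and 0.023 in FTO against mut-FTO. The cause was not tested. Over the fits with each library left out, values that changed sign ranged in FTO against Vector from -0.23 to 0.099 (DSG3) and from -0.13 to 0.39 (PKP3). In mut-FTO against Vector the ranges were -0.089 to 0.26 (DSG3, and 0.33 without both libraries), -0.14 to 0.48 (DSP), -0.017 to 0.49 (PKP3) and -0.037 to 0.29 (JUP), and in FTO against mut-FTO -0.11 to 0.22 (DSC2) and -0.0077 to 0.18 (DSC3). Over those fits the log2 ratio of DSG3 to DSG2 differed by 0.28 to 0.34, 0.71 to 0.83 and -0.52 to -0.40, and its direction was fixed by the choice of a pair whose groups do not overlap. Over all genes, 102, 1067 and 319 were called in the 3 comparisons, against 366, 1680 and 751 with DESeq2, 41, 621 and 1218 on the 6 samples compared, 1050, 2401 and 1196 without both libraries, and 270, 2023 and 729 with the GC correction. A log2 fold change of at least 1 left 702 in mut-FTO against Vector. With each library left out the counts ranged from 27 to 476, 609 to 2089 and 71 to 1427, highest without Vector replicate 3. With the replicate number as a block, 67, 813 and 222 genes and 0 members were called. Same-numbered libraries did not deviate together (r from -0.13 to 0.11), so the numbers were not taken as pairs, and a library matched its own number best in 4 of 18 comparisons with another group. DSC1, without a count, could not be tested. DSG1 was tested only in the fit with no filter, where it was not called.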
